A study of Mus musculus with 33 samples.

Results

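The expression of 9 genes of transforming growth factor beta (TGF-beta) signalling was examined across mouse mammary tumours. The genes are the ligands Tgfb1, Tgfb2, Tgfb3 and Inhba, the latency protein gene Ltbp1, the receptors Tgfbr1 and Tgfbr2, the inhibitor Smad7 and the target Tgfbi. They were taken by symbol from the 54532 rows of the deposited count table, and each symbol matched 1 row. All 9 passed the filter on low counts in every comparison. On GRCm38 (GENCODE M21) the ligand genes lie on 4 chromosomes, with Tgfb1 at chr7:25687002-25705077 (plus), Tgfb2 at chr1:186622792-186705989 (minus), Tgfb3 at chr12:86056745-86079041 (minus) and Inhba at chr13:16011851-16031621 (plus). The others are Ltbp1 at chr17:75005568-75392512 (plus), Tgfbr1 at chr4:47353222-47414931 (plus), Tgfbr2 at chr9:116084293-116175360 (minus) and Tgfbi at chr13:56609523-56639562 (plus), with strands in parentheses, and Smad7 on chromosome 18.

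RNA sequencing was performed on 33 tumours, and the series compares treated with vehicle tumours from cyclin E transgenic mice and cyclin E tumours with PyMT tumours. The treated tumours had been grown as transplants. RP-6306 inhibits PKMYT1, a kinase that restrains CDK1, and its dose was 20 mg/kg, given per day in the treatment protocol and with a twice-daily abbreviation in the treatment field. Treatment periods are not given in the sources used here. Every sample carries FVB as its genotype and mammary tumour as its tissue. The groups are named here by their titles. VEH_7 (n = 3) received vehicle and M20_7 (n = 4) received RP-6306. VEH (n = 4) received vehicle and MYT (n = 11) received RP-6306. SPON (n = 5) and WT (n = 5) were untreated. The labels do not say what _7, SPON or WT stand for, nor which group is cyclin E transgenic or PyMT. The promoter of the transgene, the donors of the transplants, the age of the mice and any pooling are not given in the sources used here. A further sample, titled as vehicle and labelled as treated, was left out, so 32 libraries in 6 groups remained. Nothing in the labels says that the samples of a group came from separate mice, and the p-values below therefore reflect only the scatter among these samples, which may be technical.

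TGF-beta is secreted as a latent complex in which the growth factor stays wrapped in its own propeptide, and latent TGF-beta binding proteins such as LTBP1 tether that complex to the matrix. The released ligand binds the type II receptor TGFBR2, which recruits and phosphorylates the type I receptor TGFBR1. TGFBR1 phosphorylates SMAD2 and SMAD3, which enter the nucleus with SMAD4 and change transcription. Activin A, a dimer of the Inhba product, signals to the same SMADs through receptors of its own. In mammary tumours the pathway is known both for restraining epithelial growth and for driving matrix production and epithelial-to-mesenchymal transition.

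The sequences upstream of 4 of the genes are shown because the receptors Tgfbr1 and Tgfbr2 moved by unequal amounts and Inhba and Tgfbi had the widest spans between group means. These were chosen after the values had been seen. RefSeq windows on GRCm38.p6 were used for 7 of the 9 genes. None is given for Tgfb3 and Smad7, which says nothing about their RefSeq starts. Each printed window runs 5′ to 3′ on the strand of the gene and ends just before a RefSeq start. Bases that the GENCODE gene model covers were left out of the printed windows, so that of Tgfbi ends just before the gene model instead. Tgfbr1 is at chr4:47352972-47353221 (plus strand), Tgfbr2 at chr9:116175364-116175613 (minus strand), Inhba at chr13:16011601-16011850 (plus strand) and Tgfbi at chr13:56609336-56609522 (plus strand). Capitals mark matches, on either strand, to the SMAD palindrome GTCTAGAC, the SMAD element CAGAC, the GC box GGGCGG or the TATA box TATAAA.
Tgfbr1: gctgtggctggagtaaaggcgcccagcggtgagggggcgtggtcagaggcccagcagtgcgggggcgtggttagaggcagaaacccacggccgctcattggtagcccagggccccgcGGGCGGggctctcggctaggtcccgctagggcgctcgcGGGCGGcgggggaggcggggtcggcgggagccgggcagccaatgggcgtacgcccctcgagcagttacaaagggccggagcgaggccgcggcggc
Tgfbr2: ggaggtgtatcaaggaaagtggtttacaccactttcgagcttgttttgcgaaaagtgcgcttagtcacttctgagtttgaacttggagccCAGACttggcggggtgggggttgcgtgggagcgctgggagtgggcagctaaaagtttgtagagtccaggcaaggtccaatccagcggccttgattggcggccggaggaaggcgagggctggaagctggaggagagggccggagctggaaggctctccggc
Inhba: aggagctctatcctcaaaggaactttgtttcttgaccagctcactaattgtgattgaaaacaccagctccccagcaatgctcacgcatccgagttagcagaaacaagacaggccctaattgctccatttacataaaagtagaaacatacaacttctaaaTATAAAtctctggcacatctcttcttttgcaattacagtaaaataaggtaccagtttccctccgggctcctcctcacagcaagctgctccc
Tgfbi: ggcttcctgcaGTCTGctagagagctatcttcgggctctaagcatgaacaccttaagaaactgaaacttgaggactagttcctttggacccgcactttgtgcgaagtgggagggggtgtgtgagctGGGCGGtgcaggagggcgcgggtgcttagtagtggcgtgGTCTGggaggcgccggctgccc

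The printed Tgfbr1 window, which ends at the start of the gene model, had a GC content of 74.8% and held 2 GC boxes, and neither a CAGAC nor a TATA box. RefSeq has a further Tgfbr1 start, whose window at chr4:47385966-47386215 (plus strand, GC content 52.8%) held 1 CAGAC and no GC box. That window lies inside the GENCODE gene model and was kept whole. The Tgfbr2 window had a GC content of 58.4% and held 1 CAGAC and no GC box. Inhba had the lowest GC content of the 4 windows, 43.2%, and held a TATA box, whereas the 187 bases of Tgfbi held 2 CAGAC elements and 1 GC box. Over 32851 RefSeq windows the median GC content was 52.4%. Of windows of 250 bases, 42.2% held a CAGAC, 32.7% a GC box, 12.4% a TATA box and 0.167% the palindrome, and at 187 bases the shares were 34.2%, 22.2%, 8.62% and 0.143%. The palindrome contains GTCTA and TAGAC and so shares no full match with CAGAC. A match describes these letters and is not evidence of binding, and its absence says only that the letters are not in the window.

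Libraries of VEH_7 and M20_7 held 26517748 to 34637096 counts, and those of the other 4 groups held 13701115 to 20105407. The groups differed in the markers of the cell types a tumour can hold. The summed level of 12 epithelial markers was 22.0 to 90.0 CPM (counts scaled to a fixed library size) in the 7 libraries titled _7, 615 to 1846 in VEH, 4643 to 12594 in MYT and 4251 to 12198 in SPON and WT. Transcripts of these markers were thus scarce in the 7 libraries. The sum of 12 fibroblast and mesenchyme markers was 6139 to 12217 CPM in the _7 libraries, 5032 to 6601 in VEH, 485 to 1519 in MYT and 287 to 1048 in SPON and WT. No epithelial or fibroblast marker was at 0 in a whole group. In bulk tumours, fewer cells of a type and less RNA per cell cannot be told apart. Most-counted genes took 1.03% to 3% of a library, except in SPON replicates 1 and 5, where mt-Co1 took 8.44% and 10.9%.

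Within the set without a suffix, 6 of the 9 genes were lower in MYT than in VEH and none was higher. The falls were 4.72-fold for Tgfbr2, 4.65-fold for Tgfbi, 3.20-fold for Inhba, 2.02-fold for Tgfb3, 1.999-fold for Tgfb1 and 1.51-fold for Tgfbr1. Differences were called at an adjusted p under 0.05 by edgeR's quasi-likelihood test. Of all 16021 genes tested there, 29% were called lower and 30.5% higher (59.5% in all), so a large part of the transcriptome differed between these groups. The median log2 fold change was -0.999 over the 9 genes and 0.04 over all genes. In the set titled _7 none of the 9 genes was called and the share of all 16699 genes called was 0%, with edgeR. Before adjustment 1033 genes had a p under 0.05, among them Tgfb2 and Tgfb3. DESeq2 called 60 genes and limma voom 0, and none of the 9 was called by either tool.

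Of the untreated tumours, SPON had higher Tgfb1 and lower Tgfb3 than WT, 3.42-fold and 4.27-fold by edgeR, and the other 7 genes were not called. Among all 15558 genes tested, 4.52% were called higher and 3.86% lower (8.38% in all). The difference between the sets in the response to RP-6306 was called for 4 of the 9 genes, Tgfb1, Inhba, Tgfbr2 and Tgfbi, each lower in the set without a suffix. In that test 18.9% of 17095 genes were called lower and 17% higher (36% in all). The sets also differ in library depth and in whatever the suffix marks, which cannot be told apart from their response.

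**Figure D1:**
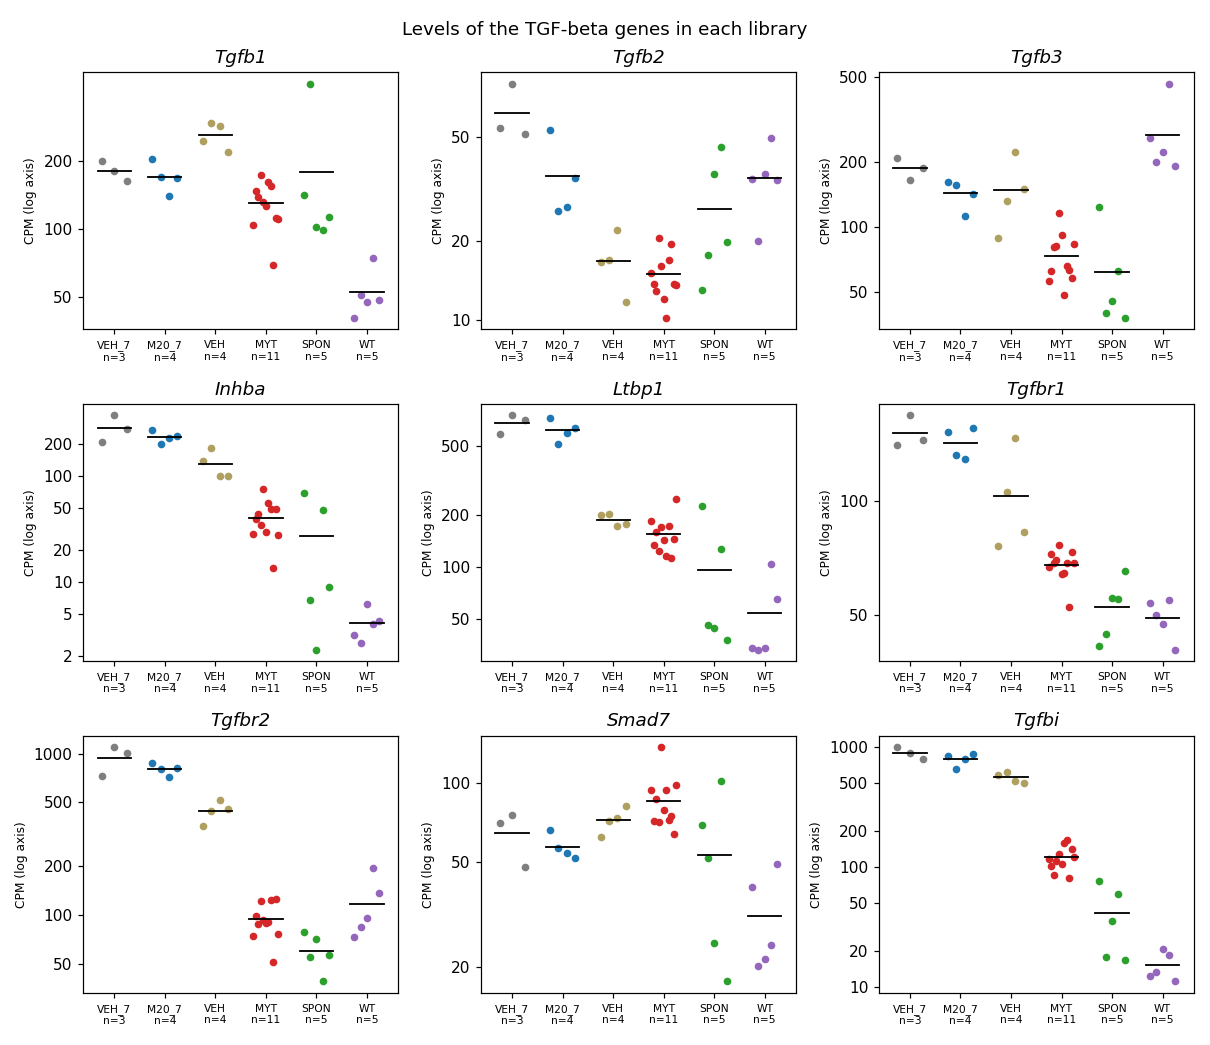
Level of each gene in every library, in CPM on a log axis, by group. Points are libraries and horizontal lines are group means. Tgfbr2 lies between 358 and 519 CPM in VEH and between 51.1 and 127 in MYT, and Tgfb3 lies between 192 and 466 CPM in WT and between 37.9 and 124 in SPON.

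Tgfb1 encodes a ligand made by many immune and stromal cells. The VEH libraries had 244, 293, 285 and 219 CPM, and the 11 MYT libraries had 69.3 to 173 CPM with a median of 132. Every MYT library was below every VEH library. edgeR gave a log2 fold change of -0.999 ± 0.168 (SE, adjusted p = 7.52e-05). In the _7 set the values were 201, 180.3 and 164 CPM with vehicle and 205, 169, 139 and 167 CPM with RP-6306. These ranges overlapped, and the log2 fold change was -0.09 ± 0.13 (adjusted p = 0.934, edgeR). The difference between the sets was -0.90 ± 0.27 on the log2 scale (adjusted p = 0.0122, edgeR), and it was not called when all 32 libraries shared 1 fit (adjusted p = 0.137).

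Untreated SPON tumours had 141, 440.2, 102, 99.6 and 113 CPM of Tgfb1, and WT tumours had 40.6, 51.2, 47.5, 74.8 and 48.8 CPM. All 5 SPON libraries exceeded all 5 WT libraries, and SPON replicate 2 was far above the others. The log2 fold change was 1.77 ± 0.42 (adjusted p = 0.0272, edgeR). Without SPON replicate 2 it was 1.12 (adjusted p = 0.0113, edgeR). The call was lost without any 1 of the 5 WT replicates, at log2 fold changes of 1.68 to 1.90 and adjusted p from 0.0538 to 0.0767 (edgeR). Macrophage markers summed to 286 to 714 CPM in SPON and 163 to 333 in WT. Of these, 1 of 8 (Mrc1) was called higher, beside 4.52% of all genes. SPON replicate 2, the highest in Tgfb1, had a macrophage sum of 330 CPM, inside the WT range. Replicates 3 and 5 had the highest sums, 714 and 685 CPM. The part of macrophages in the Tgfb1 difference was not tested. In the order of group means, VEH stood first at 260.4 ± 35.1 CPM (SD, n = 4) and did not overlap with VEH_7, which followed at 182 ± 18.7 (n = 3). SPON at 179 ± 147 (n = 5), M20_7 at 170.3 ± 26.7 (n = 4), MYT at 130.0 ± 29.8 (n = 11) and WT at 52.6 ± 13.0 (n = 5) each overlapped with the group next to it.

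Tgfb3, a ligand expressed in the mammary gland during involution, had its highest group mean in WT. WT libraries had 259.8, 202, 224, 466 and 192 CPM and SPON libraries had 124, 39.96, 45.0, 62.6 and 37.9 CPM. The groups did not overlap, and within them WT replicate 4 and SPON replicate 1 stood above the rest. This is a log2 fold change of -2.09 ± 0.39 (adjusted p = 0.0111, edgeR), and it was called without any 1 of the 10 libraries, with adjusted p of at most 0.0292. Tgfb3 thus differed between SPON and WT in the direction opposite to Tgfb1.

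In VEH, Tgfb3 was at 88.8, 132, 223 and 150.3 CPM, and in MYT it ranged from 48.1 to 117 CPM with a median of 65.6. The ranges overlapped through VEH replicate 1. In log2 units the fitted change was -1.02 ± 0.21 (adjusted p = 0.000508, edgeR). The _7 libraries had 211, 166 and 189 CPM with vehicle and 161, 157, 112.3 and 143 CPM with RP-6306. All treated values lay below all vehicle values there, at a log2 fold change of -0.39 ± 0.14 that was not called (adjusted p = 0.762, edgeR). The difference between the sets, -0.61 ± 0.33, was not called either (adjusted p = 0.157, edgeR), although it was without VEH replicate 1 (-0.81, adjusted p = 0.0460). Exons of Tgfb3 overlap those of Gm37804 and Gm48008 on the other strand over 163 and 257 bases, and the sources used here do not give strandedness. Those 2 genes held 20 counts and 1 count over all 33 libraries, against 87368 for Tgfb3.

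Tgfb2, the third TGF-beta ligand, was the least abundant of the 3 per kilobase in every group. It was at 54.2, 80.5 and 51.6 CPM in VEH_7 and at 53.6, 26.1, 27.1 and 34.9 CPM in M20_7. M20_7 replicate 1 lay within the vehicle range and the other 3 treated libraries below it. On the log2 scale the change was -0.81 ± 0.25 (adjusted p = 0.713, edgeR). VEH had 16.6, 17.0, 22.1 and 11.7 CPM and MYT ranged from 10.2 to 20.6 with a median of 13.74, with all MYT values inside the VEH range except the lowest (-0.17 ± 0.19, adjusted p = 0.444, edgeR). SPON had 13.0 to 46.0 CPM and WT 20.0 to 49.9, which overlapped (-0.38 ± 0.36, adjusted p = 0.536, edgeR). Between the sets the responses differed by 0.65 ± 0.33 (adjusted p = 0.124, edgeR), and this was called without M20_7 replicate 1 (0.91, adjusted p = 0.0274).

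Summed per kilobase of merged exons, the 3 TGF-beta ligands differed in composition between the groups. Tgfb3 made up 82.2% ± 2.84 (SD, n = 5) of the sum in WT and 34.0% ± 15.7 (n = 5) in SPON. Tgfb1 made up 11.4% ± 2.29 in WT and 56.3% ± 17.9 in SPON, where replicate 2 reached 85.4%. The shares of Tgfb1 and Tgfb3 in VEH (53.4% ± 8.29 and 43.6% ± 8.69, n = 4) and MYT (51.4% ± 8.27 and 43.3% ± 7.72, n = 11) overlapped, and the sum of the 3 ligands averaged 98.5 ± 20.8 CPM per kilobase in VEH and 50.0 ± 8.65 in MYT. In VEH_7 and M20_7, Tgfb3 held 54.4% ± 4.09 (n = 3) and 51.6% ± 2.53 (n = 4). Tgfb2 held a mean share of 2.97% in VEH and at most 10.6% in any group.

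**Figure D2:**
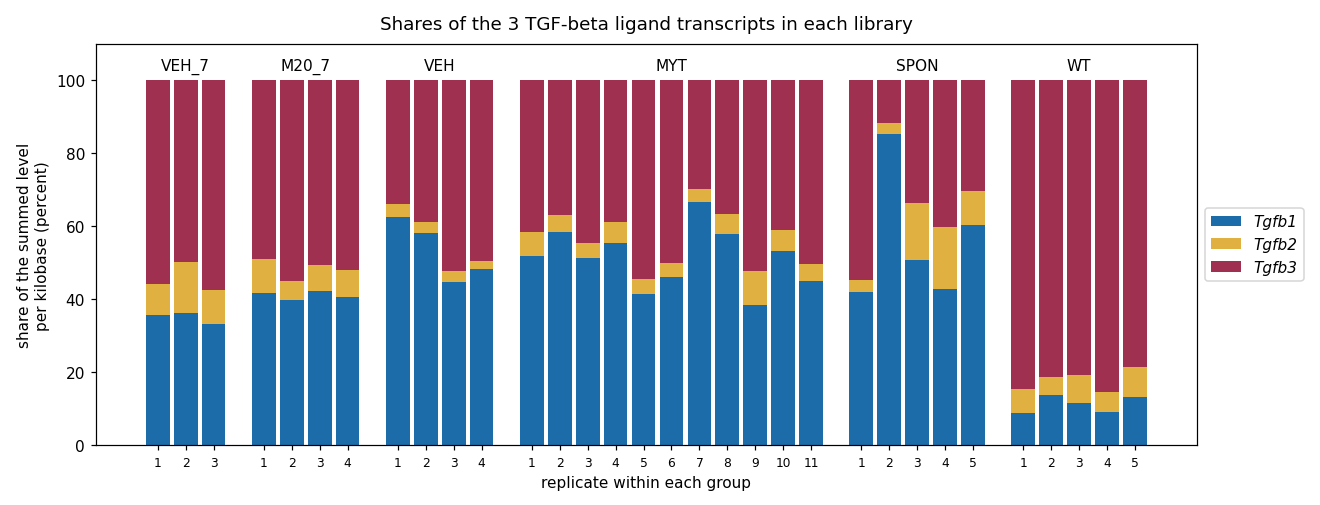
Shares of Tgfb1, Tgfb2 and Tgfb3 in the summed CPM per kilobase of the 3 ligands, in percent, with 1 bar per library grouped by title. Tgfb3 takes 78.5% to 85.4% in the 5 WT libraries and 11.6% to 54.7% in the 5 SPON libraries.

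The log2 ratio of Tgfb3 to Tgfb1 within each library, a measure chosen after the values had been seen, was -0.84 ± 1.26 (SD, n = 5) in SPON and 2.88 ± 0.34 (n = 5) in WT. The means differed by -3.72, a 13.2-fold lower ratio, and all 5 SPON libraries had a lower ratio than any WT library. Since Tgfb1 and Tgfb3 each separated these groups in opposite directions, this separation of their ratio was fixed by the choice, and no test is given. Between MYT and VEH the means differed by 0.05, and in the _7 set by -0.30.

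Inhba, which encodes the activin A subunit, had the widest span of the 9 genes, with a 69.6-fold ratio between its highest and lowest group means. VEH libraries had 137, 179.9, 100.1 and 98.2 CPM and MYT libraries had 13.4 to 74.9 CPM with a median of 39.0. No MYT library reached the lowest VEH value. edgeR gave a log2 fold change of -1.68 ± 0.28 (adjusted p = 6.87e-05). VEH_7 libraries had 206, 368 and 274 CPM and M20_7 libraries had 268, 197, 225 and 233 CPM, which overlapped (-0.29 ± 0.18, adjusted p = 0.849, edgeR). The difference between the sets was -1.38 ± 0.45 (adjusted p = 0.0206, edgeR). It was not called without VEH_7 replicate 1 (-1.20, adjusted p = 0.0737), without VEH replicate 2 (-1.19, adjusted p = 0.0541) or in 1 fit over all 32 libraries (-1.41, adjusted p = 0.211), each with edgeR.

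SPON tumours had 68.0, 6.71, 2.31, 47.9 and 9.01 CPM of Inhba and WT tumours had 3.14, 2.66, 6.18, 4.04 and 4.29 CPM. Replicates 1 and 4 of SPON were far above every WT tumour, replicates 2 and 5 were slightly above, and replicate 3 was below all of them. The fitted log2 change of 2.75 ± 0.80 was not called by edgeR (adjusted p = 0.0561), and it was called by DESeq2 (adjusted p = 0.00274) and by edgeR in 1 fit over the 32 libraries (2.73, adjusted p = 0.000534). It was 1.74 with limma voom (adjusted p = 0.253) and 2.05 without SPON replicate 1 with edgeR (adjusted p = 0.107). It was called without SPON replicate 2 (2.99, adjusted p = 0.0347) or replicate 3 (3.03, adjusted p = 0.0252), both with edgeR. The order of the 6 group means ran from VEH_7 at 283 ± 81.1 CPM over M20_7, VEH, MYT and SPON to WT at 4.06 ± 1.35, and gaps without overlap lay between M20_7 and VEH and between VEH and MYT.

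Ltbp1 encodes a latent TGF-beta binding protein and had the widest gap between neighbouring group means between M20_7 and VEH. It was at 585, 751 and 707 CPM in VEH_7 and at 722, 514, 595 and 639 CPM in M20_7, which overlapped (-0.14 ± 0.14, adjusted p = 0.903, edgeR). VEH had 199, 203, 173 and 178 CPM and MYT 113 to 247 CPM with a median of 145, with MYT replicate 11 the highest of both groups. The log2 fold change there was -0.27 ± 0.16 (adjusted p = 0.151, edgeR), and without MYT replicate 11 it was -0.35 and called (adjusted p = 0.0252). No VEH library reached the lowest value of the _7 set, a comparison described without a test. SPON had 226, 46.5, 44.8, 128 and 38.2 CPM and WT 34.3, 33.6, 34.0, 104 and 65.5 CPM. The fitted log2 change of 0.86 ± 0.54 was not called (adjusted p = 0.337, edgeR) and was 0.26 without SPON replicate 1. Between the sets the response differed by -0.12 ± 0.25 (adjusted p = 0.749, edgeR).

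Tgfbr2 encodes the type II receptor that binds the ligand, and it had the largest fitted fall of the 9 genes in MYT, within 1 SE of that of Tgfbi. VEH libraries had 358, 439.5, 519 and 457 CPM and MYT libraries had 51.1 to 127 CPM with a median of 90.7. The highest MYT value lay well under the lowest VEH value. The log2 fold change was -2.24 ± 0.17 (adjusted p = 1.96e-08, edgeR), and it was called without any 1 of the 15 libraries, between -2.32 and -2.15. VEH_7 had 724, 1098 and 1005 CPM and M20_7 had 874, 802, 719 and 819 CPM, which overlapped (-0.23 ± 0.15, adjusted p = 0.859, edgeR). Between the sets the responses differed by -2.00 ± 0.29 (adjusted p = 2.09e-05, edgeR), which was also called in 1 fit over 32 libraries. Among untreated tumours SPON had 78.8, 54.6, 70.6, 38.8 and 56.3 CPM and WT had 73.5, 84.2, 96.0, 196 and 137 CPM. Only SPON replicate 1 lay inside the WT range. The fitted log2 change of -0.96 ± 0.29 was not called by edgeR (adjusted p = 0.0657), and it was called by DESeq2 (adjusted p = 0.0370) and by edgeR in 1 fit over the 32 libraries (-0.97, adjusted p = 0.00241). MYT, SPON and WT thus lay in 1 range of 38.8 to 196 CPM and the 3 other groups in another of 358 to 1098 CPM.

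Tgfbr1 encodes the type I receptor kinase and changed less. VEH had 76.1, 106, 147 and 82.7 CPM and MYT had 52.4 to 76.5 CPM with a median of 68.5. The ranges met at VEH replicate 1. This is a log2 fold change of -0.60 ± 0.13 (adjusted p = 0.000953, edgeR). Without 1 library it was -0.71 to -0.37 and was called each time. VEH_7 at 140.4, 168 and 145 CPM and M20_7 at 152, 132, 129 and 156 CPM overlapped (-0.09 ± 0.11, adjusted p = 0.929, edgeR). SPON at 41.4 to 65.4 CPM and WT at 40.5 to 54.6 CPM overlapped as well (0.10 ± 0.18, adjusted p = 0.767, edgeR). The difference between the sets was -0.50 ± 0.21 (adjusted p = 0.0616, edgeR), and it was called without VEH_7 replicate 2 (-0.60, adjusted p = 0.0485), VEH replicate 1 (-0.64, adjusted p = 0.0145) or VEH replicate 4 (-0.61, adjusted p = 0.0280).

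The log2 ratio of Tgfbr2 to Tgfbr1 per kilobase, also chosen after the values had been seen, was 1.82 ± 0.27 (SD, n = 4) in VEH and 0.11 ± 0.29 (n = 11) in MYT. All 11 MYT libraries lay below all 4 VEH libraries. The means differed by -1.71, a 3.28-fold lower ratio, given as a description with no test. In VEH_7 and M20_7 the ratios were 2.30 ± 0.22 (n = 3) and 2.17 ± 0.09 (n = 4), a difference of -0.12. SPON at -0.15 ± 0.55 and WT at 0.84 ± 0.61 (n = 5 each) differed by -0.996.

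**Figure D3:**
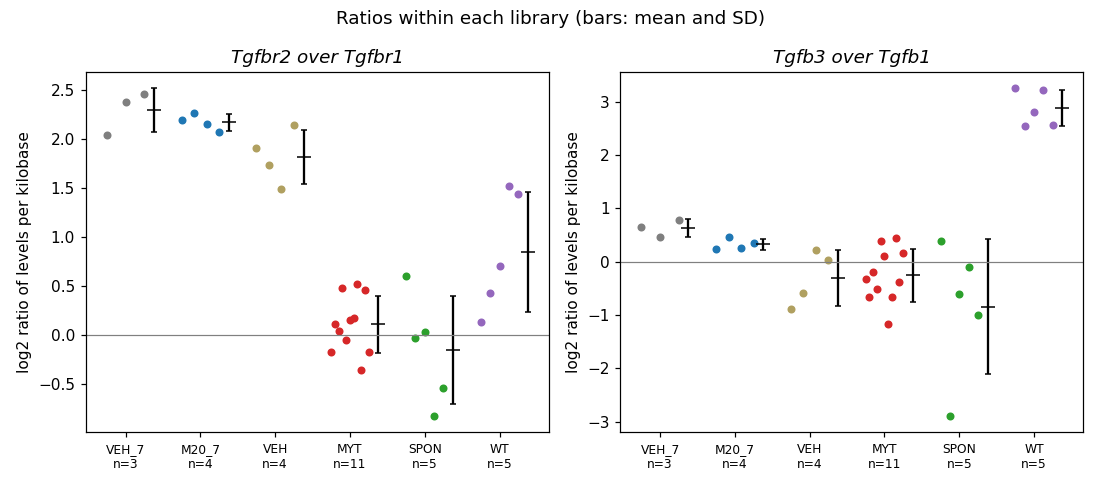
Log2 ratios of levels per kilobase within each library, by group, for the receptors (left) and for Tgfb3 over Tgfb1 (right). Points are libraries, and the bars beside them give the mean and SD. The receptor ratio averages 1.82 in VEH and 0.11 in MYT, and the ligand ratio averages -0.84 in SPON and 2.88 in WT.

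Smad7 encodes an inhibitory SMAD that TGF-beta itself induces and that blocks the type I receptor. VEH libraries had 62.5, 71.5, 73.9 and 81.7 CPM and MYT libraries had 64.0 to 137 CPM with a median of 79.3. The ranges overlapped, and the log2 fold change was 0.25 ± 0.16 (adjusted p = 0.187, edgeR). Smad7 was the only 1 of the 9 genes with a fitted value above 0 in this comparison. VEH_7 at 70.5, 75.7 and 47.9 CPM and M20_7 at 66.3, 56.5, 54.4 and 51.9 CPM overlapped (-0.18 ± 0.16, adjusted p = 0.892, edgeR). SPON had 69.6, 51.7, 24.7, 102 and 17.6 CPM and WT had 40.4, 20.2, 21.5, 24.3 and 49.2 CPM (0.79 ± 0.47, adjusted p = 0.306, edgeR). The SPON values lay both above and below the WT range. Its group means spanned 2.76-fold, the narrowest of the 9 genes.

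Tgfbi encodes a secreted matrix protein induced by TGF-beta and had the highest level per kilobase of the 9 genes in the 4 treated-set groups. VEH libraries had 592, 626, 527 and 503 CPM and MYT libraries had 81.2 to 169.7 CPM with a median of 116. The groups were separated by a wide gap. In log2 units the fitted change was -2.22 ± 0.15 (adjusted p = 7.96e-09, edgeR) and stayed between -2.28 and -2.17 without any 1 library. VEH_7 at 1004, 893 and 805 CPM and M20_7 at 851, 662, 807 and 889.5 CPM overlapped (-0.17 ± 0.13, adjusted p = 0.878, edgeR). Between the sets the responses differed by -2.04 ± 0.25 (adjusted p = 3.96e-06, edgeR).

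In SPON, Tgfbi was at 76.1, 17.6, 35.4, 60.1 and 16.8 CPM, and in WT at 12.2, 13.2, 20.5, 18.5 and 11.1 CPM. SPON replicates 1, 3 and 4 exceeded all WT values and replicates 2 and 5 lay inside their range. The fitted log2 change of 1.47 ± 0.43 was not called by edgeR (adjusted p = 0.0583), and it was called by DESeq2 (adjusted p = 0.0146), by edgeR in 1 fit over the 32 libraries (1.46, adjusted p = 0.000444) and by edgeR without SPON replicate 2 (1.65, adjusted p = 0.0275) or 5 (1.67, adjusted p = 0.0355). Group means ran from 900.5 ± 99.97 CPM in VEH_7 over M20_7, VEH, MYT and SPON to 15.1 ± 4.15 in WT, and of the 5 neighbouring pairs in that order, VEH_7 with M20_7 and SPON with WT overlapped.

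**Figure D4:**
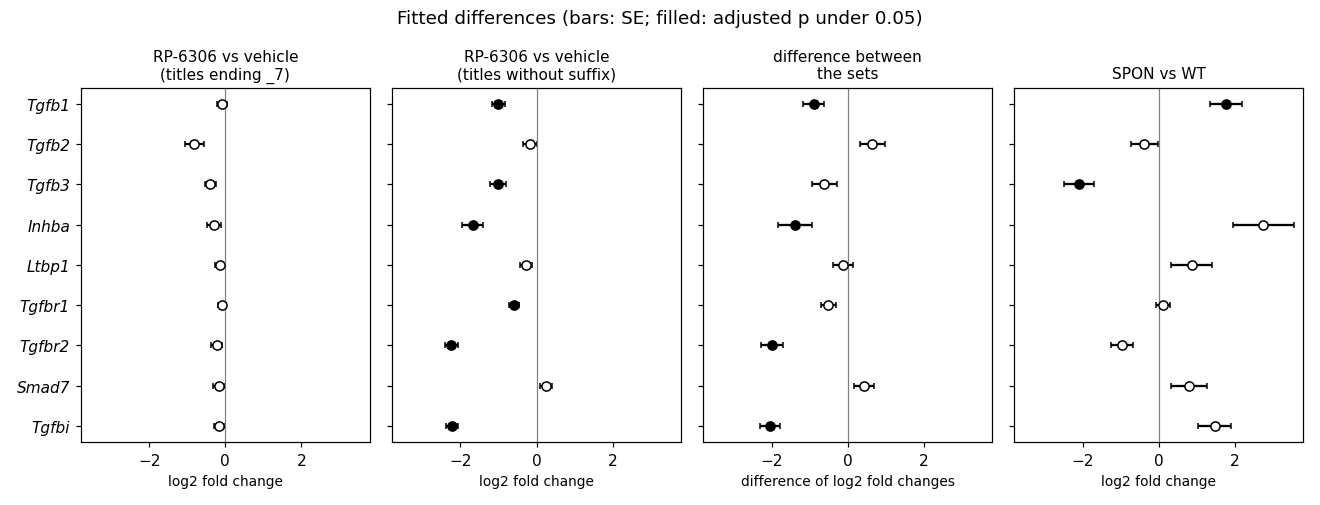
Fitted log2 differences for the 9 genes in the 4 comparisons, from edgeR. Bars are standard errors and filled points have an adjusted p under 0.05. Of the 9 points, 0 are filled in the _7 set, 6 in the set without a suffix, 4 in the difference between the sets and 2 in SPON against WT.

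Inhba, Ltbp1, Smad7, Tgfbi and Tgfb3 shared the same pair of highest SPON libraries, replicates 1 and 4, although Tgfb3 was lower in SPON than in WT. This was picked out after the values had been seen. The share of all genes that are highest in that pair was not counted, so it is not known to be particular to these genes. SPON replicates 1 and 4 also had the highest epithelial marker sums, 12198 and 8309 CPM against 4731 to 7170.2 in the other 3 SPON libraries. They were highest as well in the summed neutrophil markers, 80.7 and 40.6 CPM against 9.72 to 15.4, and in the basal and myoepithelial markers, 640 and 186 CPM against 47.2 to 154. Endothelial sums were lowest in them, 93.6 and 94.1 CPM against 102 to 260. Their fibroblast and mesenchyme sums, 386 and 416 CPM, lay within the range of the other 3 (354 to 1048). Macrophage marker sums in these 2 libraries were 286 and 361 CPM, against 330.4 to 714 in the others. The part of cell makeup in these values was not tested.

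Per kilobase, the 9 genes ranked differently in the groups. In VEH, Tgfbi led at 149 ± 15.1 CPM per kilobase, followed by Tgfbr2 at 54.2 ± 8.14 and Tgfb1 at 51.6 ± 6.96. In MYT, Tgfbi at 31.96 ± 7.42 and Tgfb1 at 25.8 ± 5.91 were followed by Tgfb3 at 21.7 ± 5.84 and Smad7 at 19.0 ± 4.49. WT was led by Tgfb3 at 79.4 ± 33.4, with Tgfbr2 next at 14.3 ± 6.14 and Inhba last at 0.636 ± 0.212. SPON was led by Tgfb1 at 35.5 ± 29.1 and Tgfb3 at 18.3 ± 10.6. These levels are descriptions of the libraries and the differences between genes were not tested.

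Cell type markers moved with the falls in MYT, in a comparison where 30.5% of all genes were higher and 29% lower. All 12 epithelial markers were higher in MYT than in VEH with edgeR (median log2 fold change 4.13). Of the fibroblast and mesenchyme markers 10 of 12 were lower (median -2.92), as were 8 of 8 endothelial markers (median -1.42), from 302 to 463 CPM in sum to 93.8 to 218, and 8 of 8 macrophage markers (median -1.37), from 1977 to 2707 CPM in sum to 586 to 1264. Their part in the falls of the 9 genes was not tested. In the _7 set no marker of these 4 lists was called.

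The rest of the pathway was described with 6 lists of 79 further genes, of which 74 were tested in the set without a suffix. There 47 were lower in MYT than in VEH and 13 were higher by edgeR, with a median log2 fold change of -0.99 against 0.04 over all genes. Over all 16021 genes tested there, 29% were lower and 30.5% higher. None was called in the _7 set by edgeR (median -0.13), where 1 was called by DESeq2 and none by limma voom. In SPON against WT 4 were higher and 3 lower of 74 (median 0.38 against 0.07 over all genes), a count near the background of 4.52% higher and 3.86% lower over all genes. Higher calls there numbered 1 without any 1 of WT replicates 1 to 4 and 2 without SPON replicate 1 or 5, and lower calls 5 without SPON replicate 2. Between the sets the response was called lower for 34 and higher for 11 of 75, against 18.9% lower and 17% higher over all genes, with 7 higher without VEH_7 replicate 2. The smallest p of a list in the _7 set belonged to Bmp2 (-1.06), Ltbp2 (-0.27), Tgfbr3 (-0.47), Tgfb1i1 (0.60), Tgif2 (-0.61) and Thbs2 (-0.72), in log2 fold changes, with adjusted p from 0.662 to 0.81 (edgeR).

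Among the transcriptional targets, 22 of 26 were lower in MYT, 1 was higher and the median was -1.74, where 29% of all genes were lower and 30.5% higher. Snai1, a transcription factor of epithelial-to-mesenchymal transition, fell by 2.15 ± 0.16 (adjusted p = 1.28e-08), and Loxl2, a matrix cross-linking enzyme, by 2.60 ± 0.21 (adjusted p = 3.88e-08), on the log2 scale with edgeR. Fn1, the gene of fibronectin, fell by 3.34 ± 0.30 on that scale (adjusted p = 1.17e-07, edgeR), from 6645 to 18053 CPM in VEH to 558 to 2173 in MYT. Id1, an inhibitor of basic helix-loop-helix factors that BMP also induces, was the 1 that was higher (18.2 to 35.1 CPM in VEH and 33.1 to 77.3 in MYT). It was named after its value had been seen. Col3a1 is also among the fibroblast markers and Acta2 among the basal and myoepithelial ones. In SPON against WT, Loxl2 (2.17 ± 0.41, adjusted p = 0.0121) and Timp1, an inhibitor of matrix metalloproteinases (2.40 ± 0.59, adjusted p = 0.0308), were higher and Cdkn1a, a cyclin-dependent kinase inhibitor, was lower (-1.81 ± 0.34, adjusted p = 0.0111), all with edgeR. The other 2 of the 5 called targets, Acta2 and Cdkn2b, were higher. Of the 26 targets, 4 were thus higher and 1 lower there, beside 4.52% and 3.86% of all genes. Higher calls over all 6 lists fell from 4 to 1 without any 1 of WT replicates 1 to 4.

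Of 12 latency and activation genes, 8 were lower in MYT and 2 higher (29% and 30.5% over all genes). Fbn1, the gene of fibrillin, to which latent complexes bind, fell by 3.12 ± 0.25 on the log2 scale (adjusted p = 3.19e-08), Ltbp4, a further latent TGF-beta binding protein, by 2.09 ± 0.17 (adjusted p = 3.05e-08) and the integrin subunit Itgav by 1.03 ± 0.10 (adjusted p = 3.98e-07), all with edgeR. The 2 that were higher are the integrin subunits Itgb6 and Itgb8, which pair with the Itgav product to release TGF-beta, and both were named after their values had been seen. Itgb6 was at 0 to 1.04 CPM in VEH and 3.32 to 7.81 in MYT. In SPON against WT the 1 called gene was Lrrc32, which anchors latent TGF-beta to the cell surface (-1.96 ± 0.41, adjusted p = 0.0175, edgeR). Over all genes in that comparison 4.52% were higher and 3.86% lower.

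Other receptors had 3 lower and 3 higher of 8 tested, near the 29% lower and 30.5% higher over all genes. Tgfbr3, a co-receptor that presents ligand, fell by 2.51 ± 0.27 on the log2 scale (adjusted p = 7.12e-07), and Eng, an endothelial co-receptor, by 1.14 ± 0.15 (adjusted p = 6.43e-06), with edgeR. Bambi, a pseudoreceptor that dampens the signal, rose by 2.63 ± 0.29 (adjusted p = 9.75e-07, edgeR), from 3.87 to 11.2 CPM in VEH to 20.98 to 54.7 in MYT. In SPON against WT, Acvrl1 was lower (-1.09 ± 0.28, adjusted p = 0.0363, edgeR).

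Among the other ligands 4 of 6 tested were lower and 1 higher, beside 29% and 30.5% of all genes. The growth factors Gdf11 and Bmp2 fell by 2.74 ± 0.31 (adjusted p = 1.11e-06) and 3.43 ± 0.41 (adjusted p = 2.21e-06) on the log2 scale, and Gdf15 by 1.54 ± 0.26 (adjusted p = 6.74e-05), all with edgeR. Inhbb, the other activin subunit, was the 1 that was higher, at 73.2 to 199.8 CPM in VEH and 253 to 475 in MYT, opposite to Inhba, and it was named after its value had been seen. Its response differed between the sets (1.75 ± 0.45, adjusted p = 0.00438, edgeR).

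SMADs and their partners had 4 lower and 1 higher of 7 tested (29% and 30.5% over all genes). Tgfb1i1, a focal adhesion protein, fell by 2.46 ± 0.26 on the log2 scale (adjusted p = 6.66e-07), the BMP-responsive Smad1 by 1.12 ± 0.16 (adjusted p = 2e-05) and the TGF-beta-responsive Smad3 by 0.69 ± 0.15 (adjusted p = 0.000937), with edgeR. The list of inhibitors and other regulators of the signal, which holds Usp15 too, had 6 lower and 5 higher of 15, near these shares over all genes. Trim33, a ubiquitin ligase that opposes SMAD4, rose by 0.9951 ± 0.11 (adjusted p = 8.88e-07), while the activin-binding protein gene Fstl3 fell by 2.09 ± 0.20 (adjusted p = 2.53e-07) and the matrix proteoglycan Dcn, also a fibroblast marker here, by 4.74 ± 0.78 (adjusted p = 6.09e-05), on the log2 scale with edgeR. None of the ligands, SMADs or inhibitors on these lists was called in SPON against WT by edgeR. Nearest to the threshold were Bgn, a matrix proteoglycan (0.76 ± 0.26, adjusted p = 0.0914), Tgfb1i1 (adjusted p = 0.107), Fst, the activin antagonist follistatin (2.43 ± 0.91, adjusted p = 0.117), and Bmp2 (2.52 ± 0.95, adjusted p = 0.119). Inhbb differed by -1.18 ± 0.49 in log2 (adjusted p = 0.153, edgeR).

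**Figure D5:**
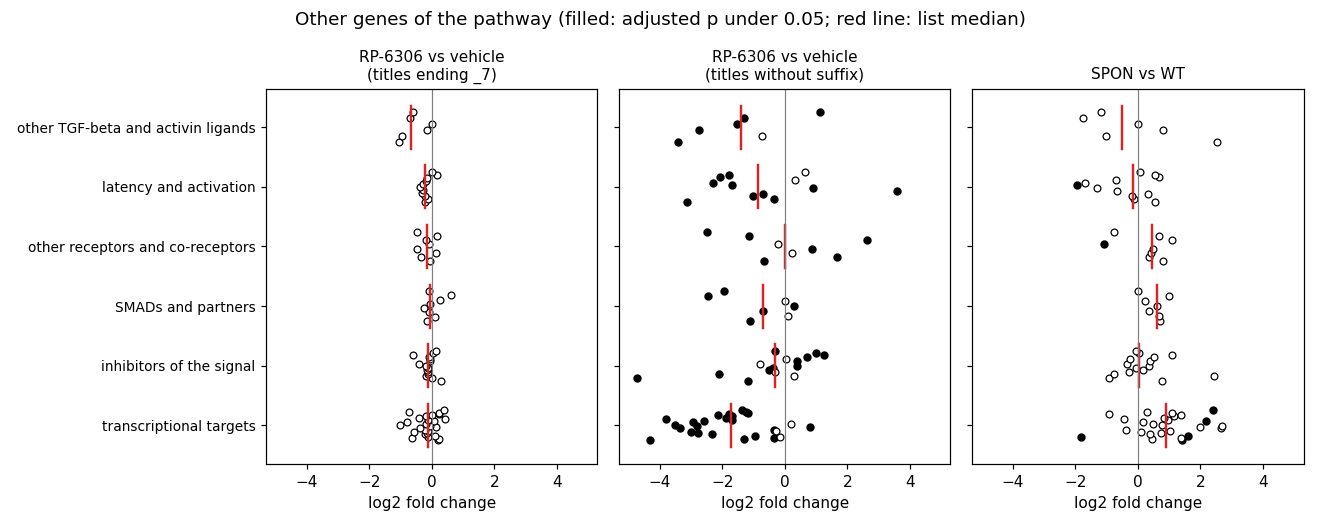
Log2 fold changes of the other pathway genes by list in 3 comparisons, from edgeR. Filled points have an adjusted p under 0.05 and red lines are list medians. In the set without a suffix 47 of 74 genes are filled below 0 and 13 above, and in the _7 set none is filled.

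For each of the 9 genes, the genes with the most alike pattern over the 32 libraries were found by the root mean square difference of log2 CPM after centring each gene, among 11757 genes. A smaller value is more alike. The closest pair was Tgfbr1 with Sh2b3 at 0.19, against a median of 0.83 over all genes. Tgfb1 was most like Ugdh (0.43) and Inhba most like Nrp2 (0.55), against medians of 0.96 and 2.20. Tgfb2 was nearest to Fbxo10 (0.47), Tgfb3 to Mxd4 (0.52) and Ltbp1 to the laminin gene Lamc1 (0.50). Tgfbr2 was nearest to Tbc1d2b (0.45), Smad7 to Rnf217 (0.33) and Tgfbi to Olfm1 (0.58). Second in likeness were Dock5, Rgma, Zfp189, Angptl2, Sh3pxd2a, Lamp2, Peak1, Tnfaip3 and Gpr176 for Tgfb1, Tgfb2, Tgfb3, Inhba, Ltbp1, Tgfbr1, Tgfbr2, Smad7 and Tgfbi, in that order. All these values share the same libraries and scaling and carry no test.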

How the data were processed

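RNA-seq of 33 mouse mammary tumour samples was used. The authors deposited a table of counts per gene and a table of log2 CPM values. GRCm38 is listed as the build and edgeR, HTSeq and STAR 2.7.10a as tools, per the submitters' processing notes. Kit, strandedness and annotation are not given in the sources used here. The deposited log2 values differed by at most 0.0576 from values recomputed from the counts and were not tested. All results come from the counts. Rows without a symbol (791, with 0.0482% of counts) were kept. Groups came from titles and treatment fields. Replicates were numbered in accession order and pair nothing. All 90 library pairs within groups differed beyond sampling noise (chi-square per degree of freedom of at least 16.12).

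Each comparison was fitted over all genes on its own groups by the quasi-likelihood test of edgeR 4.0.16 under R 4.3.3, after filterByExpr and TMM, with Benjamini-Hochberg adjustment over all genes tested. Standard errors came from the F statistic. CPM used TMM factors over the 32 grouped libraries, and levels per kilobase used merged GENCODE M21 exons. Alternatives were DESeq2 1.42.0, limma 3.58.1 voom, DESeq2 size factors, no filter, 1 fit over 32 libraries and each library left out. The fits were also run on counts simulated from the fitted model itself. Far fewer genes were changed there than were called in the set without a suffix, and no result here rests on that run. The 9 genes, the 6 pathway lists (81 entries, 79 with a row) and 10 marker lists were chosen with earlier results of these data known. The rule for named genes took the 9 genes, the 3 smallest p per pathway list in each of 3 comparisons (given in part where none was called) and the 2 most alike genes (mean log2 CPM of at least 1, prior count 2).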

Additional observations from a re-analysis of the deposited data

Results flagged for a closer look

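Tgfb1 in SPON replicate 2, at 440.2 CPM, stood apart from the 4 other SPON libraries. Tgfb3 did so in SPON replicate 1, at 124 CPM, and in WT replicate 4, at 466 CPM. Each was the sample whose gap to its nearest neighbour took up more of the range of its group than Dixon's 95% limit allows. Chance alone marks about 1 in 20 groups, and the 9 genes were examined in the 4 groups of 4 to 10 samples.

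The response to RP-6306 differed between the set without a suffix and the set titled _7, by the test of the difference itself with edgeR, for 4 of the 9 genes. Over all 17095 genes in that test, 18.9% were called lower and 17% higher (36% in all). On the log2 scale the difference was -0.90 for Tgfb1, -1.38 for Inhba, -2.00 for Tgfbr2 and -2.04 for Tgfbi. All 4 differences were below 0, that is, MYT was lower relative to VEH than M20_7 was relative to VEH_7. In 1 fit over all 32 libraries Tgfb1 (adjusted p = 0.137) and Inhba (adjusted p = 0.211) were not called by edgeR. Inhba was also not called without VEH_7 replicate 1 or without VEH replicate 2. Library depth and whatever the suffix marks differ between the sets too and cannot be told apart from the response.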

How the results depend on the processing

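No called fold change of the 9 genes changed sign under any alternative run. In the set without a suffix the same numbers of genes were called lower (6) and higher (0) under each of the 5 other analyses, and 6 to 7 were lower without 1 library.

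In the _7 set, genes called numbered 4 higher and 2 lower with no filter on low counts and 17 higher and 43 lower with DESeq2, which called 1 other pathway gene lower. In SPON against WT, DESeq2 called 1488 genes higher and 1364 lower, and 1 fit over the 32 libraries called 3192 and 2280. Both called 3 of the 9 genes higher and 2 lower. Of the other pathway genes, 9 were higher with DESeq2, 1 with limma voom and 18 in the 32-library fit, which had 6 lower. With 1 library left out, 218 to 992 genes were higher and 271 to 895 lower, 0 to 3 of the 9 genes were higher, and 1 to 6 other pathway genes were higher and 2 to 5 lower. Without WT replicate 1, 2, 3 or 4 the genes higher numbered 218 to 240. For the difference between the sets, the 32-library fit called 1543 genes higher and 1958 lower, with 2 of the 9 genes lower (Tgfbr2 and Tgfbi) and 4 other pathway genes higher and 20 lower. Without 1 library, 0 to 1 of the 9 genes were higher and 7 to 12 other pathway genes were higher. The cause of these changes was not tested.

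Mean levels of the 9 genes moved by at most 1 SD of their group in all 108 checks of scaling. Leaving out 1 library can never move a group mean by that much, so such checks of the levels say nothing. The order of group means changed in 5 of 18 scalings and in 15 of 288 left-out libraries. With a prior count of 0.5, Fmnl1 replaced Gpr176 as the second gene most like Tgfbi. The Tgfb3 to Tgfb1 difference between SPON and WT was -4.02 to -3.21 without 1 library. No paired analysis was possible because the titles give no replicate numbers that groups share. Groups of 3 to 5 libraries limit the precision of every comparison except through MYT, which has 11.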

Other observations

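Other marker lists also differed between the groups. Over all genes, 30.5% were called higher and 29% lower in MYT against VEH, and 4.52% and 3.86% in SPON against WT. The summed level of 7 neutrophil markers was 15.5 to 77.9 CPM in VEH and 97.8 to 216 in MYT, where 4 of 6 tested were higher and 1 lower by edgeR, and in SPON against WT 1 of 4 was higher. The 8 basal and myoepithelial markers summed to 208 to 2798 CPM in VEH and 133 to 536 in MYT (3 of 7 tested lower, 2 higher), and 1 of 8 was higher and 1 lower in SPON against WT. Most of the VEH sum was Acta2 and Cnn1, with means of 1212 and 197 CPM. Mean Krt5, Krt14 and Krt17 were higher in MYT (3.40, 181 and 19.8 CPM) than in VEH (1.16, 29.9 and 3.24). Oxtr had only 43 counts in MYT and 11 in VEH, at 0.240 ± 0.158 and 0.191 ± 0.148 CPM (SD), a difference within the spread. Mean Acta2, Cnn1, Myh11 and Trp63 were lower in MYT. The 6 skeletal muscle markers summed to 72.4 to 939 CPM in VEH and 0.744 to 6.22 in MYT (2 of 3 tested lower). Nearly all of the VEH sum was Acta1, with a mean of 455 CPM. The other muscle markers averaged 0.114 (Myh4) to 1.61 (Tnnt3) CPM in VEH. Platelet markers summed to 56.5 to 169 CPM in VEH and 6.23 to 25.9 in MYT (2 of 3 tested lower), and adipocyte markers to 18.7 to 48.0 and 6.29 to 43.2 CPM (1 of 2 tested lower). Most of the platelet sum in VEH was Pf4 (mean 91.0 CPM), followed by Itga2b (14.8). Ppbp averaged 4.83 CPM in VEH and 3.74 in MYT, and Gp9, Gp1bb and Gp6 averaged at most 0.314 in VEH. T cell markers summed to 8.997 to 16.9 CPM in VEH and 4.597 to 17.9 in MYT, with none of 6 called by edgeR. No marker on these lists was called in the _7 set by edgeR. In SPON against WT the called markers of the epithelial, fibroblast, endothelial and macrophage lists were Elf3, Pdgfrb, Twist1 and Mrc1, all higher.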
